A study of Mus musculus with 8 samples.

Results

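The genes described here are 10 genes of the mural cells, the contractile cells that wrap blood vessels. The pericyte genes are Rgs5, Kcnj8, Abcc9, Cspg4 and Pdgfrb, and the smooth muscle genes are Acta2, Myh11, Tagln, Cnn1 and Mylk. They are 10 of the 36047 genes in the tables, all 10 were among the 17997 genes that passed the expression filter, and they were selected on the difference between the diets in these same mice, whose results were already known. The diet values that chose them are therefore given as levels and differences, without a p-value for any of the 10. RNA came from nuclear GFP-positive muscle stem cells (MuSCs) of male Pax7-nTnG mice aged 5 to 6 months, sorted from gastrocnemius and quadriceps muscle. In these animals the Pax7 promoter drives a tamoxifen-activated Cre (Pax7-CreERT2), which switches the Rosa26 nTnG reporter from nuclear red to nuclear green fluorescence. One group ate a vitamin A-free (VA-free) diet for 8 weeks (3 mice) and the control group ate normal chow (2 mice), and both groups carried the same alleles and received tamoxifen. Libraries A and B of a mouse are technical replicates, split from 1 lysate before the RNA was purified. The 4 libraries of each diet, 8 in all, thus stand for 5 animals.

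Mural cells sit on the outside of the endothelial tube. Pericytes lie on capillaries, depend on PDGF-B signaling through Pdgfrb, and are known for Rgs5, which shortens G protein signals, and for an ATP-sensitive potassium channel built from Kcnj8 and Abcc9. Vascular smooth muscle cells lie on arterioles and venules and contract through smooth muscle actin and myosin, which the kinase Mylk switches on. Acta2 and Tagln are also made by activated fibroblasts and by myogenic cells, including MuSCs, so these 2 genes are not specific to vessels. MuSCs are marked by Pax7 and lie under the basal lamina of muscle fibers, close to capillaries, and a sort on a nuclear reporter can hold some cells or free RNA of other types. In bulk RNA, fewer cells of a type and less RNA per cell cannot be told apart.

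The libraries held 44831232 to 88650428 estimated counts. Levels are given in CPM, TMM-normalized counts scaled to a common library size, for comparisons of 1 gene between libraries, and in TPM, which corrects for transcript length, for comparisons between genes. Pax7, which labels the sorted cells, was at 132 ± 28.3 CPM (SD, n = 3) in VA-free mice and at 78.1 ± 2.57 CPM (SD, n = 2) in control mice, which differed by 0.76 on the log2 scale (edgeR, adjusted p = 0.0194). Control 2A stood apart from its partner: over the 17997 genes tested the median absolute log2 difference between libraries of a mouse was 0.473 for control 2, 0.221 for control 1 and 0.113 for VA-free 3.

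A gene is called lower or higher where edgeR's quasi-likelihood test gave an adjusted p under 0.05. Of the pericyte genes 3 of 5 and of the smooth muscle genes 4 of 5 were called lower on the VA-free diet, 7 of the 10 in all (8 with DESeq2, which also called Abcc9). Over all genes tested, 22.5% were called lower and 18.9% higher. None of the 10 was called higher, by edgeR or by DESeq2, and 0 had a higher level at an unadjusted p under 0.05 with either tool. Of the 17997 genes tested, DESeq2 called 4501 lower and 3865 higher. The share of all genes at an unadjusted p under 0.05 was not counted. The median log2 fold change was -1.80 over the pericyte genes, -2.96 over the smooth muscle genes and 0.00 over all genes tested. In 7 of the 10 every VA-free library was below every control library, which held for 21.5% of all genes, while 19.8% had every VA-free library above. The diet contrast was used to pick the genes, so nothing about the set follows from these shares. On the TPM scale (limma, pseudocount 1), 68.7% of all calls were higher, against 45.6% on the count scale, and the median gene rose by 0.192.

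**Figure D1:**
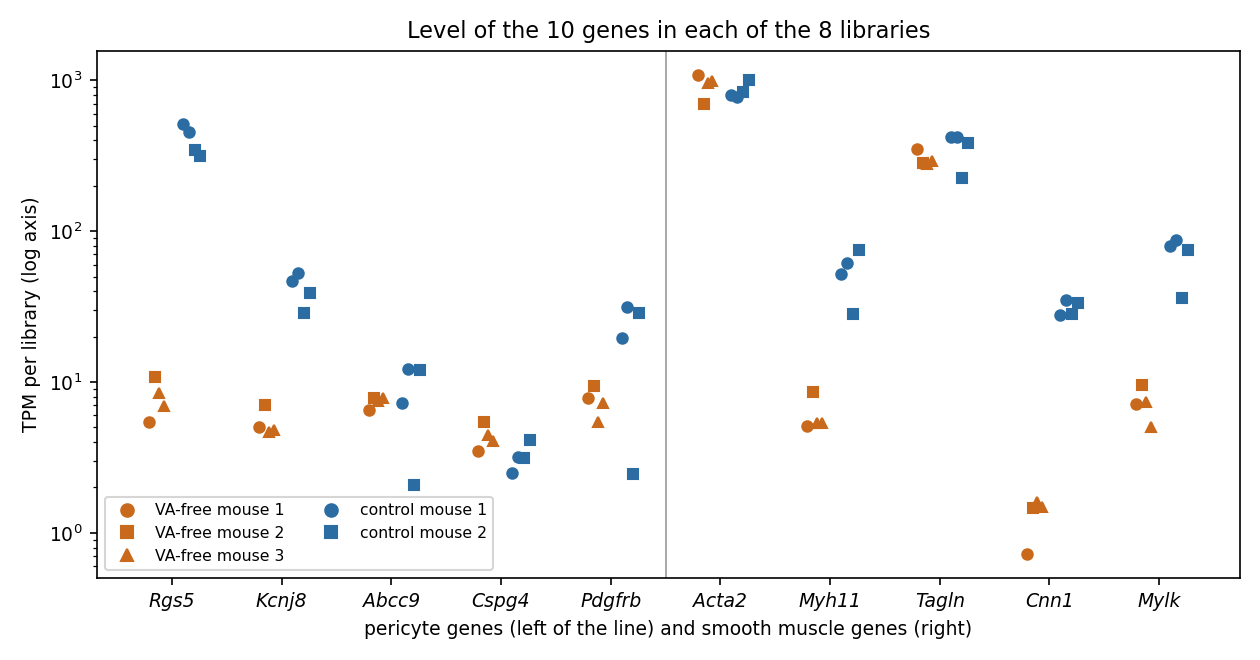
TPM of each of the 10 genes in the 8 libraries, on a log axis, with VA-free libraries in orange, control libraries in blue and 1 symbol per mouse; each point is 1 library. Rgs5, Kcnj8, Myh11, Cnn1 and Mylk lie lower in every VA-free library than in any control library, whereas Acta2, Tagln, Abcc9, Cspg4 and Pdgfrb overlap between the diets on this scale.

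Rgs5, a regulator of G protein signaling used as a pericyte marker, differed most. It lies on chromosome 1 (GRCm38, chr1:169655501-169695813, plus strand). On the VA-free diet libraries 1B, 2A, 3A and 3B held 11.5, 24.2, 19.1 and 15.7 CPM. On the control diet libraries 1A, 1B, 2A and 2B held 1545, 1329, 1161 and 862 CPM. The lowest control library was far above the highest VA-free library, and the libraries of the diets did not overlap. Per mouse the mean was 17.9 ± 6.27 CPM (SD, n = 3) against 1232 ± 370.0 CPM (SD, n = 2), which is a log2 fold change of -6.11 (SE 0.36) or 69.2-fold lower, which ranked 102 of 17997 genes from the most lowered.

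Kcnj8 encodes Kir6.1, the pore subunit of the vascular ATP-sensitive potassium channel (chr6:142564837-142571614, minus strand). It measured 6.19, 8.91, 6.23 and 6.50 CPM in the VA-free libraries and 83.0, 92.7, 56.4 and 62.0 CPM in the control libraries, in the same library order as above. All control libraries were above all VA-free libraries. The VA-free mean of 7.24 ± 1.47 CPM (SD, n = 3) stood against 74.0 ± 23.4 CPM (SD, n = 2), and the log2 fold change was -3.36 (SE 0.25).

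Abcc9, the sulfonylurea receptor SUR2, is the partner subunit of Kcnj8 and its neighbor on the same strand of chromosome 6, 16247 bases away (chr6:142587862-142702315). It did not follow its partner. Its libraries overlapped, at 22.5, 28.6, 27.4 and 28.2 CPM on the VA-free diet and at 36.1, 58.7, 12.7 and 51.6 CPM on the control diet, where control 2A was the lowest of all 8. The log2 fold change of -0.60 (SE 0.20) was not called. It was called in 7 of 21 alternatives: without control 2A (-0.91), without VA-free 3B (-0.62), without control mouse 2 (-0.86), with DESeq2 (-0.61), with RLE size factors (-0.61), without a filter on low counts (-0.62) and with the trend on transcript length removed (-1.09).

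Cspg4, the NG2 proteoglycan on the surface of pericytes and of several progenitor cells (chr9:56865033-56899870, plus strand), was low on both diets. It measured 14.6, 24.3, 20.0 and 18.4 CPM in the VA-free libraries and 9.94, 18.9, 9.46 and 20.9 CPM in the control libraries. The libraries overlapped, and in both control mice library A held less than library B. The log2 fold change was 0.40 (SE 0.22) and was not called.

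Pdgfrb, the PDGF receptor beta (GRCm38 chromosome 18, 61045150 to 61085061, plus strand), measured 21.9, 27.9, 16.2 and 21.8 CPM on the VA-free diet and 78.4, 124, 11.1 and 104 CPM on the control diet. In 3 of 4 control libraries it was above every VA-free library, whereas control 2A was below all of them. The means of 23.3 ± 4.37 CPM (SD, n = 3) and 80.8 ± 31.7 CPM (SD, n = 2) differed by a log2 fold change of -1.80 (SE 0.26), called lower. Without control 2B, which leaves only 2A for that mouse, it was -1.31 and not called, nor was it with 1 library per mouse, the one with the first letter (-1.03).

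Acta2, smooth muscle alpha actin (chr19:34241090-34255590, minus strand), was the most abundant of the 10. It measured 857, 587, 842 and 835 CPM on the VA-free diet and 937, 881, 1091 and 1059 CPM on the control diet. All VA-free libraries were below all control libraries in CPM, yet the gap between 857 and 881 CPM was smaller than the spread within either diet, and in TPM the libraries overlapped. The means of 771 ± 159 CPM (SD, n = 3) and 991 ± 68.5 CPM (SD, n = 2) gave a log2 fold change of -0.36 (SE 0.19) that was not called. On the TPM scale with limma the sign turned, to 0.09, below the 0.192 by which the median gene rose there.

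Tagln, the actin-binding protein SM22 alpha (chr9:45929619-45936058, minus strand), measured 192, 158, 178 and 182 CPM on the VA-free diet and 335, 348, 220 and 280 CPM on the control diet. Its libraries did not overlap in CPM, and in TPM control 2A, at 224, was below all VA-free libraries. The log2 fold change was -0.73 (SE 0.18), called lower. The call was lost without VA-free mouse 2 (-0.66), without control mouse 1 (-0.45), without control 2B (-0.70), with 1 library per mouse (-0.64), with the trend on transcript length removed (-0.31) and on the TPM scale (-0.23 with either pseudocount, 1 or 0.1). Tagln overlaps Pcsk7, a protease gene on the opposite strand, and shares 3.93% of its 31-base words with it. The kit does not mark strand, so counts from the shared stretch are uncertain.

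Myh11, smooth muscle myosin heavy chain and the most specific marker of mature smooth muscle (chr16:14194535-14291372, minus strand), measured 17.2, 30.5, 19.3 and 18.9 CPM on the VA-free diet and 250, 288, 153 and 324 CPM on the control diet. The lowest control library, 2A, was above the highest VA-free library, 2A. The means of 22.5 ± 7.07 CPM (SD, n = 3) and 256 ± 29.3 CPM (SD, n = 2) gave a log2 fold change of -3.51 (SE 0.25), 11.4-fold lower.

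Cnn1, calponin, which restrains actomyosin in differentiated smooth muscle (chr9:22099216-22109630, plus strand), was the lowest of the 10 on the VA-free diet. It measured 0.555, 1.02, 1.12 and 0.785 CPM there and 23.3, 28.4, 26.8 and 25.7 CPM on the control diet. The 4 control libraries lay close together and far above the VA-free libraries. The log2 fold change was -4.94 (SE 0.28), 30.7-fold lower, the largest fall among the smooth muscle genes.

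Mylk, the myosin light chain kinase of smooth muscle and many other cells (chr16:34745210-35002420, plus strand), measured 15.0, 18.1, 13.9 and 12.7 CPM on the VA-free diet and 135, 149, 79.1 and 120 CPM on the control diet. The libraries did not overlap. The means of 15.6 ± 2.34 CPM (SD, n = 3) and 122 ± 34.5 CPM (SD, n = 2) gave a log2 fold change of -2.96 (SE 0.21), 7.81-fold lower.

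**Figure D2:**
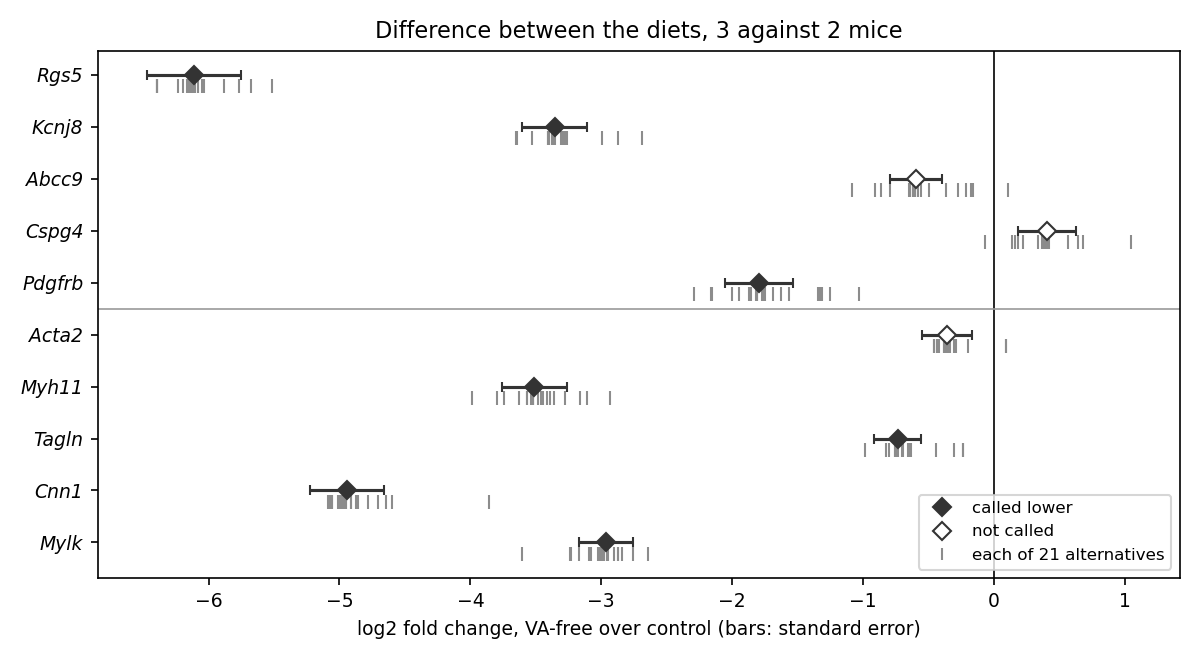
Log2 fold change of each gene, VA-free over control, from edgeR over 3 and 2 mice (diamonds, bars of 1 standard error; filled where called lower), with gray ticks for the 21 alternative settings. Rgs5, Kcnj8, Myh11, Cnn1 and Mylk were called lower in all 21, Pdgfrb in 19, Tagln in 14, Abcc9 in 7 and Acta2 in 0; Cspg4 was called in 1, as higher.

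Set side by side, the split between pericyte and smooth muscle genes was not the split between genes that fell and genes that did not. The genes with log2 fold changes below -2 were Rgs5 and Kcnj8 of the pericyte genes and Myh11, Cnn1 and Mylk of the smooth muscle genes. Acta2, Tagln, Abcc9 and Cspg4 lay between -0.73 and 0.40. Pdgfrb, called lower at -1.80, lay between these sets. The pericyte median was 1.17 log2 units above the smooth muscle median. Counting Myh11 with the pericyte genes turned that difference to -0.73, so its sign hung on the place of 1 gene.

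In TPM, Acta2 headed the order in all 8 libraries. On the VA-free diet Tagln came next at 279 to 349 TPM, and Pdgfrb, Mylk, Abcc9, Rgs5, Myh11 and Kcnj8 followed together between 4.65 and 10.8 TPM. Kcnj8 was the last of these 6 in each library, the order of the other 5 changed from library to library, and neighbors in the band did not differ beyond their spread. Cspg4 (3.48 to 5.45 TPM) and Cnn1 (0.726 to 1.60 TPM) came last in each VA-free library. On the control diet Rgs5 stood in the leading group, at 315 to 513 TPM beside 224 to 421 TPM for Tagln, and came second in 3 of 4 libraries. Mylk (36.2 to 87.8 TPM), Myh11 (28.3 to 74.7 TPM), Kcnj8 (28.8 to 53.1 TPM) and Cnn1 (28.0 to 35.0 TPM) formed the next band, with ranges that overlapped. The 5 pericyte genes summed to 28.3 to 40.6 TPM in VA-free and 380.0 to 589 TPM in control libraries. The 5 smooth muscle genes, of which Acta2 and Tagln made up most, summed to 995 to 1450 and 1151 to 1572 TPM, ranges that overlapped.

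Ratios within a library do not depend on scaling between libraries. The ratio of Kcnj8 to Myh11 was 0.818 to 0.974 on the VA-free diet and 0.517 to 1.02 on the control diet, and that of Myh11 to Mylk was 0.714 to 1.07 and 0.652 to 0.992. For these 3 genes, 1 of pericytes and 2 of smooth muscle, the ratios of the diets overlapped while the levels did not. Other pairs separated. Rgs5 stood at 1.09 to 1.82 times Kcnj8 on the VA-free diet and at 8.15 to 11.9 times on the control diet. Acta2 stood at 81.0 to 212 times Myh11 on the VA-free diet and at 12.5 to 29.5 times on the control diet. Kcnj8 stood at 0.613 to 0.894 times its channel partner Abcc9 on the VA-free diet and at 3.20 to 13.9 times on the control diet. The ratio of Acta2 to Tagln, by contrast, overlapped, at 2.48 to 3.47 and 1.84 to 3.73.

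**Figure D3:**
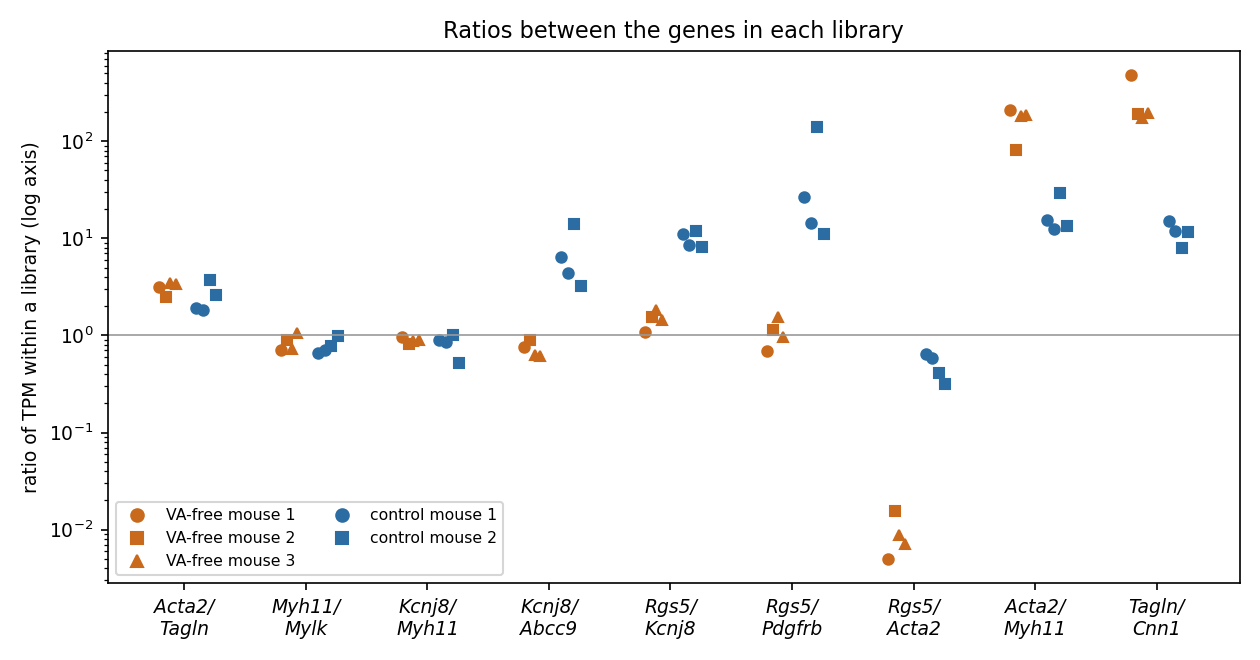
Ratio of the TPM of pairs of genes within each library, on a log axis, with VA-free libraries in orange, control libraries in blue and 1 symbol per mouse. The ratios Acta2 to Tagln, Myh11 to Mylk and Kcnj8 to Myh11 overlap between the diets, and the other 6 do not.

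Technical replicates show how well each gene was measured in 1 lysate, with RNA purification and library preparation included. Acta2 differed least between libraries A and B of a mouse, by at most 0.09 log2 units, and Kcnj8 by at most 0.16. Rgs5 differed by 0.29 in VA-free 3, 0.22 in control 1 and 0.43 in control 2, small against its difference of -6.11 between the diets. Pdgfrb differed by -3.23 in control 2, from 11.1 CPM in A to 104 CPM in B, which was more than its difference between the diets. Abcc9 differed by -2.03, Cspg4 by -1.14 and Myh11 by -1.08 in the same mouse. The genes with the largest gaps in control 2 also had lower values in A than in B of control 1, by -0.66 for Pdgfrb, -0.70 for Abcc9 and -0.93 for Cspg4. The mean transcript length is 5415 bases for Pdgfrb, 5777 for Abcc9, 5380 for Cspg4 and 5236 for Myh11, against 1430 for Acta2, 966 for Tagln and 2408 for Kcnj8. Mylk, of 2344 bases by the same mean, differed by -0.61 in control 2. Most of its estimated counts there lay on Mylk-201 and Mylk-207, of 7824 and 3730 bases. Rgs5, of 2410 bases by that mean and 4096 for its main transcript, was higher in A than in B in all 3 mice. Where these 2 genes stand in an order by length depends on the measure used. The part of length in these gaps was not tested.

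**Figure D4:**
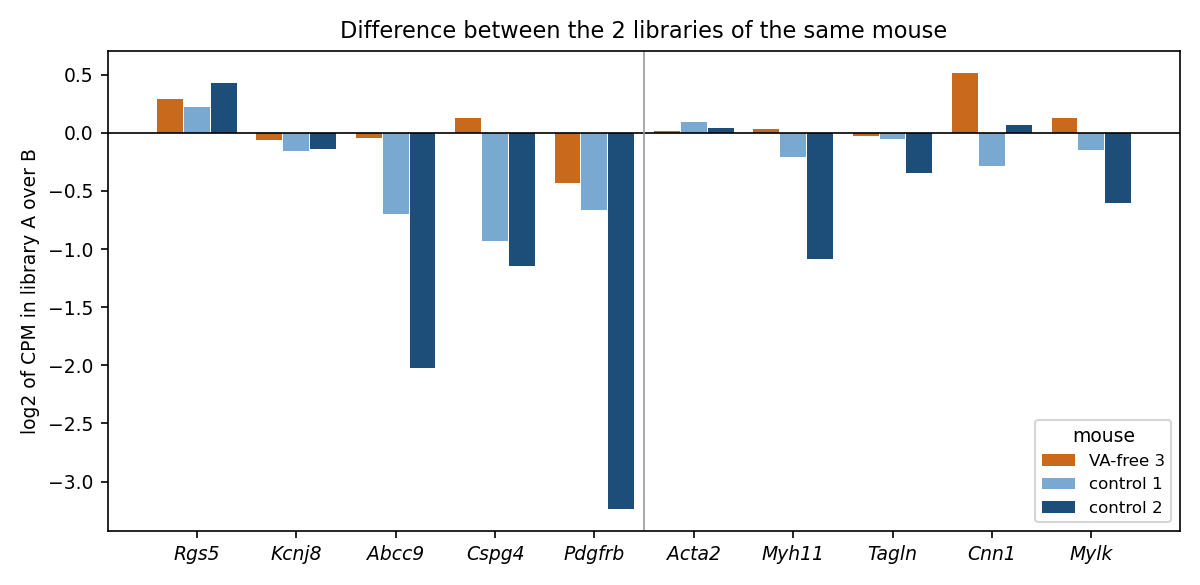
Log2 ratio of CPM in library A over library B for the 3 mice with 2 libraries; bars start at 0. Control 2 shows the longest bars, -3.23 for Pdgfrb and -2.03 for Abcc9, while Acta2 and Kcnj8 stay within 0.16 of 0 in all 3 mice.

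The transcripts behind the gene totals differed in some of the 10. Rgs5 rested on 1 transcript, Rgs5-201 of 4096 bases, which held at least 99.1% of its TPM in every library. Acta2-201 held 61.9% to 66.6% of the Acta2 TPM on both diets. For Cspg4 the protein-coding transcript held 98.0% to 99.5% in the VA-free libraries but 40.0% in control 1A, all in 1B, none in 2A and 84.7% in 2B. In control 2A, 81.1% of the Cspg4 TPM lay on the retained-intron transcript Cspg4-204. For Mylk only 19.7% to 34.6% of the TPM in a library lay on protein-coding transcripts, and the retained-intron transcript Mylk-207 held 26.2% to 49.5%, so its place in the order by TPM rests mostly on other transcripts. Its full-length coding transcript Mylk-201 of 7824 bases was at 1.61 to 2.53 TPM on the VA-free and 5.15 to 9.66 TPM on the control diet. The short coding transcript Mylk-203 of 1620 bases, which starts near the 3' end of the gene (chromosome 16, from 34994807), was at 0.119 to 0.374 and 6.87 to 16.4 TPM. The libraries of the diets did not overlap for either transcript. Pseudo-alignment divides reads between overlapping transcripts, so these shares are estimates.

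The relatives of the 10 genes show which members of each family were measured in this RNA. Of the other subunits of ATP-sensitive potassium channels, Kcnj11 and Abcc8, the pancreatic and neuronal pair, were at most at 0.171 and 1.06 TPM in any library, and neither was called (edgeR, adjusted p = 0.874 and 0.525). Of the R4 subfamily of RGS proteins, 8 of 10 were tested, while Rgs13 and Rgs21 had a count of 0 in every library. Rgs3 fell with Rgs5, from 41.9 ± 15.3 CPM (SD, n = 2) to 7.57 ± 1.20 CPM (SD, n = 3), with a log2 fold change of -2.47 (edgeR, adjusted p = 0.000611). Rgs16 fell by 1.10 on the log2 scale (edgeR, adjusted p = 0.0277), but lost the call without VA-free mouse 1 (-0.998), VA-free mouse 2 (-0.962), control mouse 1 (-0.59) or control 2B (-0.74). Rgs4, at 79.4 to 109 TPM on the VA-free and 58.6 to 87.7 TPM on the control diet, had a log2 fold change of -0.09 and was not called (edgeR, adjusted p = 0.685). Rgs2 at -0.42, Rgs8 at 0.44, Rgs1 at -1.82 and Rgs18 at -1.86 were not called either, although Rgs2 was without control 2A (-0.59), without control mouse 2 (-0.61) and without VA-free 3B (-0.47), and Rgs1 without VA-free mouse 2 (-4.07). In TPM, Rgs5 was the most abundant R4 gene in every control library and below Rgs2 and Rgs4 in every VA-free library.

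Among the 6 actins, the visceral smooth muscle gene Actg2 fell from 8.36 ± 7.76 CPM (SD, n = 2) to 0.155 ± 0.11 CPM (SD, n = 3), with a log2 fold change of -5.74 (edgeR, adjusted p = 0.00243). Cytoplasmic Actg1 rose by 0.86 on the log2 scale (edgeR, adjusted p = 0.00832), without a call once control 2B was left out (1.12). Actb at -0.70, the skeletal actin Acta1 at -0.43 and the cardiac actin Actc1 at 0.40 were not called. Actb was called without control 2A (-0.91) and without control mouse 2 (-1.11), Acta1 without VA-free mouse 1 (-0.54) and without control 2A (-0.43), and Actc1 without VA-free mouse 2 (0.67). Acta2 shares 1.39% of its 31-base words with other genes, Actg1 among them. Among the myosin light chain kinases, Mylk fell while 2 of its 3 relatives rose. The skeletal muscle kinase Mylk2 rose from 0.59 to 4.44 TPM in the control libraries to 12.3 to 39.4 TPM in the VA-free libraries (edgeR, adjusted p = 0.00326), and Mylk4 rose by 1.06 on the log2 scale (edgeR, adjusted p = 0.00964). Mylk3 had at most 40 counts in a library and was not called.

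Of 23 other genes of mural cells, 14 were called lower, 3 higher and 6 not, with a median log2 fold change of -1.96. Over all genes tested 22.5% were called lower and 18.9% higher. Without control 2A 16 of the list were lower and 3 higher. The 3 that rose were among the most abundant of the list. Notch3, the Notch receptor of mural cells, rose by 2.78 (edgeR, adjusted p = 0.000236), Heyl, a Notch target, by 1.52 (adjusted p = 0.000498) and the sphingosine phosphate receptor S1pr3 by 1.04 (adjusted p = 0.00280), all on the log2 scale by edgeR. Notch3 and Heyl are also on the list of MuSC genes. Vtn, vitronectin, had a log2 fold change of -0.58 and was not called (edgeR, adjusted p = 0.0987), although it was without control 2A (-0.84) and without control mouse 2 (-0.96). Chosen after their values were seen, Higd1b, at 17.1 ± 5.29 CPM (SD, n = 2) in control and 0.288 ± 0.0909 CPM (SD, n = 3) in VA-free mice, and Ndufa4l2 and Ebf1 had log2 fold changes of -5.90, -4.67 and -4.12 (edgeR, adjusted p = 0.000226, 0.000246 and 0.000223). The summed TPM of the list went the other way, from 688 to 1186 in control to 1310 to 1649 in VA-free libraries, with S1pr3, Heyl and Notch3 as its most abundant genes.

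Of 27 other contractile genes, 18 were called lower, 4 higher and 5 not, with a median log2 fold change of -0.92; leaving out 1 mouse or library gave 13 to 18 lower and 1 to 4 higher, with 14 and 1 without control 2B. Among the most abundant, Myl6, an essential myosin light chain found in most cells, fell by 0.99 (edgeR, adjusted p = 0.000895), Cnn3 and Rhoa at -0.22 and -0.10 were not called, and Des, the intermediate filament desmin of all muscle, rose by 1.19 (edgeR, adjusted p = 0.00178). The rise of Des was 0.78 without control 2A and 1.75, not called, without control 2B, and Cnn3 was called lower without control mouse 1 (-0.46). The 18 called lower and 4 called higher of the 27 stand beside 22.5% and 18.9% of all genes. Chosen after their values were seen, the other 3 that rose were Vcl, Rock2 and Itga8, by 1.12, 0.86 and 0.62. Chosen in the same way, Lmod1, leiomodin, had a log2 fold change of -5.59 and Myl9, the smooth muscle regulatory light chain, one of -3.85 (edgeR, adjusted p = 0.000274 and 0.000127). Myl9 measured 502 ± 69.8 CPM (SD, n = 2) in control and 34.9 ± 1.42 CPM (SD, n = 3) in VA-free mice.

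Contractile genes are known targets of serum response factor (Srf) and its partners of the myocardin family, which bind a sequence called the CArG box. Of 13 regulators 3 were called lower, 4 higher and 6 not, with a median log2 fold change of 0.04, beside 22.5% lower and 18.9% higher over all genes. Leaving out 1 mouse or library gave 2 to 5 lower and 2 to 4 higher. Without control mouse 2 these were 5 and 3, without control 2B 2 and 2, and without VA-free mouse 1, VA-free mouse 3 or control 1A 3 and 2. Srf rose from 27.3 ± 12.2 CPM (SD, n = 2) to 54.4 ± 3.68 CPM (SD, n = 3), with a log2 fold change of 1.00 (edgeR, adjusted p = 0.0223). That call was lost without VA-free mouse 1 (0.98), VA-free mouse 3 (0.95), control 1A (0.82) or control 2B (1.31), and the value moved to 1.54 without control mouse 1 and 0.59 without control mouse 2, still called. Elk4 rose by 1.09 (edgeR, adjusted p = 0.00935), and Klf4 at -0.28 and Fhl1 at 0.09 were not called, though Klf4 was without control mouse 2 (-0.53). The 3 called lower, named after their values were seen, were Myocd, myocardin itself, at 4.25 ± 4.31 CPM (SD, n = 2) in control and 0.152 ± 0.0546 CPM (SD, n = 3) in VA-free mice, Gata6 and Elk3. For Myocd the SD of the 2 control mice was about as large as their mean.

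The 250 bases before the start site were taken from RefSeq (GRCm38.p6) for 7 of the 10 genes and searched for the CArG box, on both strands, with at most 1 G or C in its 6-base core. Acta2 was the only one of the 7 with a match, and it had 2, whereas 8.59% of 32851 windows of the same length held at least 1. They are shown with 10 bases on either side and the box in capitals, 84 and 34 bases before the RefSeq start site, on the minus strand, at chr19:34255438-34255467 and chr19:34255388-34255417, inside the longer first exon of the Ensembl model.
Acta2 distal site: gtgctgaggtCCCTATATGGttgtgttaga
Acta2 proximal site: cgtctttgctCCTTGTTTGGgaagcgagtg
No match was found in the windows of Rgs5, the gene with the largest difference, and of Cnn1, shown here in lower case since no base is marked. The Rgs5 window is chr1:169655251-169655500 and the Cnn1 stretch, which stops before the first annotated exon, is chr9:22099003-22099215, both on the plus strand.
Rgs5: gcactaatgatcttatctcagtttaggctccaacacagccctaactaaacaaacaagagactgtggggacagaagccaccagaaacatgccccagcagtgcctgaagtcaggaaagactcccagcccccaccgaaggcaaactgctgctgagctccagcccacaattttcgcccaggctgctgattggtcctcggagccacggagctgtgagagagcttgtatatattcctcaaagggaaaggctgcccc
Cnn1: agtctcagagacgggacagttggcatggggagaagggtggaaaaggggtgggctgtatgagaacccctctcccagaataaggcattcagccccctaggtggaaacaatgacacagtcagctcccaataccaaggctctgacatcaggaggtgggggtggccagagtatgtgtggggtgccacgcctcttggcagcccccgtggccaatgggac
A match is a stretch of letters and not a bound site, and the absence of one covers these windows only. Promoters of Kcnj8, Abcc9, Cspg4 and Mylk were searched in the same way. So were those of Myl9 and Srf, which held 2 matches each. Of the genes with matches, Myl9, chosen after its value was seen, fell, Srf was called higher and Acta2 was not called. A relation between matches and the difference between the diets was not tested.

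Of 14 genes that pass signals between endothelial and mural cells, 9 were called lower and 5 not, beside 22.5% lower over all genes. Their median log2 fold change was -1.55. Pdgfb, the endothelial ligand of Pdgfrb, fell from 7.34 ± 0.609 CPM (SD, n = 2) to 3.65 ± 0.345 CPM (SD, n = 3), by 1.01 on the log2 scale (edgeR, adjusted p = 0.0108), and was named after its value was seen. Among the most abundant, the endothelial receptors S1pr1, Tie1 and Tek fell, with log2 fold changes of -2.09, -3.24 and -0.65 (edgeR, adjusted p = 0.000724, 0.000918 and 0.00502), of which Tie1 was not called without control 2B (-2.90). The Notch ligand Jag1 at -0.53 was not called (edgeR, adjusted p = 0.165), but was without control mouse 1 (-0.92).

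Marker genes of other cell types also differed between the diets, to an extent that varied with the cell type. The counts below stand beside 22.5% called lower and 18.9% called higher over all genes. All 13 endothelial markers were called lower (12 without control 2B), with a median log2 fold change of -3.58. Their summed TPM was 166 to 223 in VA-free and 789 to 2016 in control libraries. Pecam1, an adhesion molecule of endothelial junctions, had a log2 fold change of -3.61 (edgeR, adjusted p = 0.000398), and Ptprb and Kdr had -3.42 and -3.19. None of the 13 was at 0 in all libraries of a diet. Tenocyte markers were lower in 8 of 9 (6 without control 2B), with a median of -4.84. Their summed TPM was 49.0 to 70.2 against 377 to 720. Fmod, Thbs4, Tnmd and Kera, extracellular proteins of tendon, were the most abundant, with log2 fold changes of -5.06, -4.84, -7.02 and -5.81. Schwann cell markers were lower in 8 of 9, with -3.59 for Mbp and -0.64 for Pmp22, whereas Ncam1, which MuSCs also express, rose by 1.23. Their summed TPM overlapped, at 858 to 874 in VA-free and 777 to 1268 in control libraries. Fibro-adipogenic progenitor markers were lower in 7 of 12, Dcn with -4.46, while Col3a1 rose by 1.38 (not called without control 2B, at 1.92) and Gsn at 0.18 and Col1a1 at -0.28 were not called, Col1a1 being called without control 2A (-0.67). The median log2 fold change of that list was -2.89. Its summed TPM went the other way, at 10460 to 11230 in VA-free and 5227 to 8351 in control libraries. Col3a1 and Gsn, its most abundant genes, had median TPM of 5197 and 4370 in VA-free and 1669 and 2845 in control libraries.

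Macrophage markers were lower in 4 of 12, beside 22.5% of all genes called lower and 18.9% called higher. The count was 1 to 7 when 1 mouse or library was left out. It was 1 without VA-free mouse 1 or control mouse 2, 2 without VA-free mouse 3 or control 2B, and 7 without VA-free mouse 2. Their summed TPM was 37.5 to 211 in VA-free and 217 to 914 in control libraries, highest in control 2A. Lyz2 fell by 3.35 (edgeR, adjusted p = 0.0123) and Cd14 by 2.02 (edgeR, adjusted p = 0.0192). Lyz2 was not called without VA-free mouse 1 (-3.24) or control mouse 2 (-2.08), nor Cd14 without VA-free mouse 1 (-1.80), VA-free mouse 3 (-1.77), control mouse 2 (-1.31) or control 2B (-2.20). C1qb at -1.94 and Csf1r at 0.07 were not called. Myofiber markers were lower in 7 of 13, in 8 without control 2A and in 5 without control 2B. Myl1 had -1.59, and Acta1, Atp2a1 at 0.50 and Actn3 at 0.63 were not called. Atp2a1 was called without VA-free mouse 2 (0.65) and without control 1B (0.61), and Actn3 without control mouse 2 (1.15). MuSC markers went the other way: 13 of 15 were called higher (8 without control 2B, 8 to 14 over all such omissions), with a median of 1.10 and summed TPM of 5570 to 6041 in VA-free and 1691 to 2920 in control libraries. Vcam1, Sdc4 and Spry1 rose by 0.73, 1.10 and 0.69 (edgeR, adjusted p = 0.00276, 0.000878 and 0.00550), and Chodl at 0.47 was not called, although it was in 6 of 21 alternatives, among them without VA-free mouse 1 (0.61) and without control 2A (0.52). The part of these cell types in the values of the 10 genes was not tested.

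**Figure D5:**
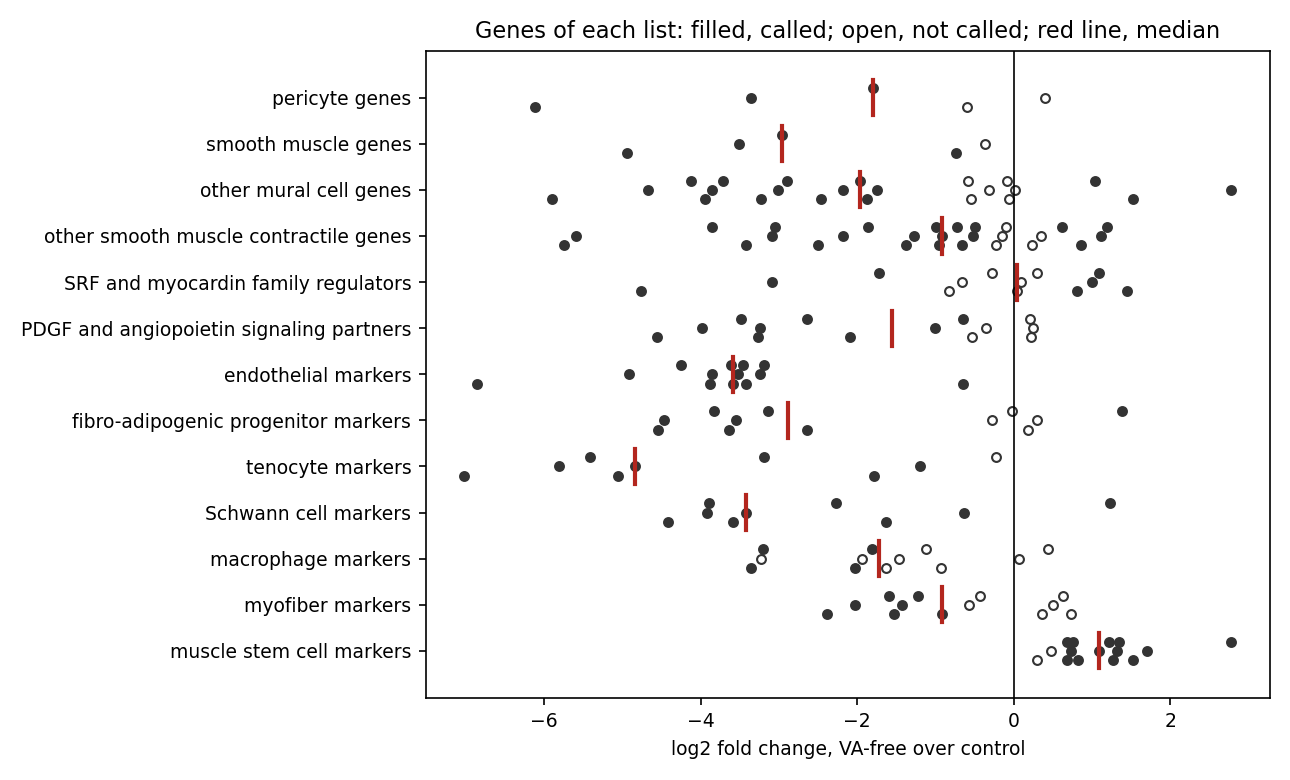
Log2 fold change, VA-free over control, of the pericyte and smooth muscle genes and of the genes of each list; filled points were called by edgeR, open points were not, and the red line is the median. Endothelial and tenocyte markers lie at medians of -3.58 and -4.84, MuSC markers at 1.10 and the list of SRF and myocardin family regulators at 0.04.

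The shape of a profile over the 8 libraries can be compared irrespective of level. Profiles of log2(CPM + 1) were centered, scaled to unit SD and compared by their root mean square difference over the 9601 genes whose mean reached 10 CPM. Nearest to Rgs5 were Apol10b (0.042), the cyclin Ccnd2 (0.050), the granule proteoglycan Srgn (0.053), Cytl1 (0.057) and Lmod1 (0.060). Of the other 9 genes, Cnn1 came at rank 29 (0.098), Kcnj8 at 48 (0.110), Mylk at 200 (0.180) and Myh11 at 270 (0.204), and Abcc9 (1.19) and Cspg4 (1.72) came far behind. Nearest to Acta2 were Gyg (0.296), Knop1 (0.404), Igf1 (0.405), Islr (0.432) and Acta1 (0.444). Of the other 9 genes Cnn1 was nearest to Acta2, at rank 770. The difference between the diets, which chose the 10 genes, is part of each profile, and the VA-free mean was below 10 CPM for Apol10b, Cytl1, Lmod1, Cnn1 and Kcnj8. The 8 points come from 5 animals and fall into 2 diets, and no test was made of these likenesses.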

How the data were processed

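RNA-seq was done on nGFP-positive MuSCs of 3 VA-free and 2 control mice (SMART-Seq v4, Nextera XT, 75 bp single-end). The authors pseudo-aligned reads to GRCm38 Ensembl 96 transcripts with kallisto 0.46.2 and deposited estimated counts and TPM per transcript, not normalized between libraries. TPM keeps no depth. Estimated counts were summed per gene over 116816 of 118489 transcripts (0.647% to 0.756% of counts had no gene), added over libraries of a mouse and rounded. The diets were tested over mice in R 4.3.3 with edgeR 4.0.16 (filterByExpr, TMM, quasi-likelihood, Benjamini-Hochberg, threshold 0.05). Each SE was derived from the F statistic. Alternatives used DESeq2 1.42.0, limma 3.58.1 on log2(TPM + 1) or log2(TPM + 0.1), length corrections, other treatments of libraries, a replicate block and leaving out mice or libraries. Members and gene lists were chosen with earlier results of these data known. Named were the 10 genes, up to 4 of the most abundant others of a list, all tested genes of 4 small families and the 5 nearest profiles; 1 result under that rule is left out. Genes named outside the rule are marked as chosen after their values were seen. Pax7, named as the gene that labels the sorted cells, is the exception and is given for the main fit only.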

Additional observations from a re-analysis of the deposited data

Results flagged for a closer look

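In each diet the highest and the lowest of the 4 libraries were compared with their nearest neighbor by Dixon's ratio, for all 10 genes. Of 20 such groups 3 passed the critical value for 4 values. That value flags about 1 in 20 groups of independent values. Libraries of a mouse are not independent, so the 3 cannot be set against that rate. All 3 concerned VA-free 2A, the only library of its mouse. Kcnj8 was at 8.91 CPM there, above the other VA-free libraries (6.19 to 6.50 CPM), and Myh11 was at 30.5 CPM, above 17.2 to 19.3 CPM. Acta2 was at 587 CPM there, below 835 to 857 CPM. The libraries 3A and 3B on this diet share a mouse, and such technical replicates count as separate values in the ratio. Without VA-free mouse 2 the log2 fold changes were -3.53 for Kcnj8, -3.79 for Myh11 and -0.20 for Acta2, against -3.36, -3.51 and -0.36 with it.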

How the results depend on the processing

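The fits of the 10 genes were repeated under 21 alternatives, which changed the side of the threshold for 4 of them. Rgs5, Kcnj8, Myh11, Cnn1 and Mylk were called lower in all 21, with log2 fold changes of -6.40 to -5.52, -3.65 to -2.69, -3.99 to -2.94, -5.08 to -3.86 and -3.61 to -2.65. Acta2 was called in none (-0.46 to 0.09). The count called lower was 5 to 8. Keeping 1 library of each mouse, the one with the first letter, gave 5, and 1 gene, Cspg4, was called higher at 1.04; Abcc9 turned to 0.10 there. Leaving out a mouse or library gave 5 to 8 genes called lower, 5 without control 2B and 8 without control 2A, with medians of -2.16 to -1.31 for the pericyte genes and -3.23 to -2.65 for the smooth muscle genes and a difference of 0.94 to 1.56.

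With limma on log2(TPM + 1) and log2(TPM + 0.1), the pericyte median was -1.25 and -1.35 and the difference of medians 1.68 and 1.76, the median of all genes rose by 0.192 and 0.354, Rhoa turned to 0.32 and 0.33, and 5799 and 5867 genes were called higher against 2637 and 2631 lower. The cause of these shifts was not tested. With length offsets the smooth muscle median was -3.48 and the difference 1.72. With the length trend removed the pericyte median was -2.29. With the first letter kept it was -1.03 and the difference 1.72. With Myh11 among the pericyte genes the medians were -2.58 and -1.85 and their difference -0.73.

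The labels give no pairing of mice between the diets beyond the replicate number. Deviations from the diet mean of same-numbered mice correlated at -0.065 and 0.01. The deviations of 2 control mice mirror each other, so these values are not independent and cannot settle whether mice were paired. With the replicate block, 7 of the 10 were called lower and the medians were -1.63 and -2.84, while 2903 genes were called lower and 2339 higher over all genes, against 4056 and 3403 without it. Without control 2B these counts were 2863 and 1613. With 2 control mice the spread of that diet rests on 1 difference between animals. Counts were low on both diets for Kcnj11, Abcc8, Mylk3, Rgs1 and Rgs18, and on the VA-free diet for Actg2. Among the 10 genes Cnn1 was the lowest on the VA-free diet, at 39 to 57 estimated counts in a library.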
